A study of Mus musculus with 9 samples.

Results

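The 10 genes described here are expressed in white adipocytes, lipid-storing cells of the fat that wraps the aorta. Some are also expressed in brown adipocytes and other cells, as given below. The 10 genes comprise the adipokines Adipoq, Lep, Retn and Cfd, the cytosolic enzyme Car3, the fatty acid carrier Fabp4, the lipid droplet coat protein Plin1, the lipases Lipe and Pnpla2, and the lipase inhibitor G0s2. They were chosen by name from adipokine, lipid droplet and lipolysis genes of white fat, with earlier results of these data known. All 10 were found among the 54532 genes of the deposited table. Aortas came from mice of the genotype Apoe-/-, which lack apolipoprotein E and develop atherosclerosis, so every group carries that deletion and no Apoe-intact aorta was analysed here. The mice were 6 to 8 weeks old when a regimen of 24 weeks began. HFD_IO mice ate a high fat diet and were injected intraperitoneally with ammonium iron(III) citrate, HFD mice ate the high fat diet alone, and CD mice ate chow, with 3 aortas in each group. The labels name the tissue as aorta and do not say how much surrounding fat was left on the vessel, so the amount of fat in a sample was not set by the design. They also do not say whether the HFD and CD mice received a sham injection. The series title asks about iron overload in atherosclerosis.

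White adipocytes keep triglyceride in 1 large droplet coated with perilipin 1, the product of Plin1. When fat is called for, Pnpla2 encodes the lipase that removes the first fatty acid from triglyceride and Lipe the hormone-sensitive lipase that acts on the product, while the small protein encoded by G0s2 binds and inhibits the Pnpla2 lipase. In mature mouse adipocytes Adipoq, Lep, Retn and Cfd encode the secreted proteins adiponectin, leptin, resistin and adipsin, and perivascular fat releases such proteins next to the vessel wall. Perivascular fat of the mouse thoracic aorta also holds adipocytes with brown features, which express Adipoq, Plin1 and the lipases too and are told from white ones by Ucp1.

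The bases upstream of the annotated start are shown for Adipoq, the member taken below as the measure of adipocyte message, and for Lep and G0s2, the members that passed the test in both comparisons with HFD. They are the 250 bases before the RefSeq start on GRCm38.p6, read 5′ to 3′ on the strand of the gene. The windows are chr16:23146286-23146535 on the plus strand for Adipoq, chr6:29059971-29060220 on the plus strand for Lep and chr1:193273189-193273438 on the minus strand for G0s2. Capitals mark the letters that match a searched motif. In Adipoq it is the CCAAT box, written ATTGG where it lies on the other strand, and in Lep it is TTGCNNAA, a site of the C/EBP type.
Adipoq: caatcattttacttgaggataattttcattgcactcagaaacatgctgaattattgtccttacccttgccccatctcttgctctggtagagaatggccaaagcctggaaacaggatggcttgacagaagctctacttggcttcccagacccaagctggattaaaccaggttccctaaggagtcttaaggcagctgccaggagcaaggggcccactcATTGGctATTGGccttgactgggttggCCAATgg
Lep: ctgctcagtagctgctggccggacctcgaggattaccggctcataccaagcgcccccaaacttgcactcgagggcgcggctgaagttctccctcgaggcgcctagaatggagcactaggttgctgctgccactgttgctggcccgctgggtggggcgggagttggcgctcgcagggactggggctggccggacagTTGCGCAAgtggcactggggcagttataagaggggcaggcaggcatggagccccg
G0s2: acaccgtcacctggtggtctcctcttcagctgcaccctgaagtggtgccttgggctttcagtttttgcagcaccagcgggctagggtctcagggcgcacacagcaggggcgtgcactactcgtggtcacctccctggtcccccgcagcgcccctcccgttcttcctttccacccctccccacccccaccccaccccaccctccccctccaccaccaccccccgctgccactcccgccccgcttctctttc

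RefSeq promoter windows were found for 8 of the 10 members, not for Car3 and Fabp4, and Lipe had 2 windows, which gave 9 in all. The motifs searched on both strands were the TATA box letters TATAAA, the CCAAT box, the C/EBP-type letters TTGCNNAA, the nuclear receptor core AGGTCA and the direct repeat of that core with 1 base between. The Adipoq window held CCAAT letters at 34, 27 and 7 bases before the start, and it was the 1 member window of 9 with this motif, which 33.85% of all 32851 windows held. TTGCNNAA was in 2 of the 9 member windows, against 9.564% of all windows. In Lep it was the palindrome TTGCGCAA 55 bases before the start, which reads the same on both strands, and in Plin1 it lay 187 and 58 bases before the start. No member window held the TATA letters, the receptor core or its repeat, which were in 12.368%, 14.024% and 0.033% of all windows. The G0s2 window held none of the searched letters. These matches describe the letters of a short window only.

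RNA was measured by sequencing of libraries made from total RNA. Levels are given in deposited FPKM, that is, fragments set against gene length in kilobases and against a scaling factor for each library. That factor is proportional to the median-of-ratios size factor of the library, not to its sum of reads. The whole reads behind the FPKM values summed to between 16660963 and 18308450 per library, and 1 read in a gene of 1 kilobase was worth 0.0541 to 0.0615 FPKM. A library is called by its column name, and the number in it is not repeated in the labels. The labels number 9 aortas and do not say whether an aorta was pooled from several mice. Apoe itself was listed at 17.5 to 21.9 FPKM in HFD_IO, 9.73 to 15.1 FPKM in HFD and 10.9 to 14.5 FPKM in CD. These values cover the whole gene and do not show whether its deleted part was read. Changes are differences of mean log2(FPKM + 1), with their standard error (SE) from limma, and a gene was called where its p-value, adjusted over the 13883 genes tested by the Benjamini-Hochberg method, was under 0.05. Adding 1 makes the change of a weak gene such as Lep look smaller. All 10 members passed the filter on low values, which asked for 3 libraries at or over 1 FPKM. Lep reached 1 FPKM in the 3 HFD libraries, in HFD_IO_2 and in CD_1, and so would have been tested through HFD alone.

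The members varied strongly between aortas of the same group, which bears on every result below. The mean of the 10 members, centred for each gene on its mean over the 9 libraries, was -1.35, 0.43 and -0.36 on the log2 scale in HFD_IO_1, HFD_IO_2 and HFD_IO_3. It was 0.46, 0.41 and 1.41 in HFD_1, HFD_2 and HFD_3, and 0.18, -0.25 and -0.93 in CD_1, CD_2 and CD_3. HFD_3 was above the gene's own mean for all 10 members, and HFD_IO_1 and CD_3 were below it for all 10. HFD_IO_2 lay close to HFD_1 and HFD_2 and above every CD library. In this mean HFD_IO overlapped both other groups, while every HFD library was above every CD library. In bulk tissue fewer adipocytes and less RNA per adipocyte cannot be told apart.

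**Figure D1:**
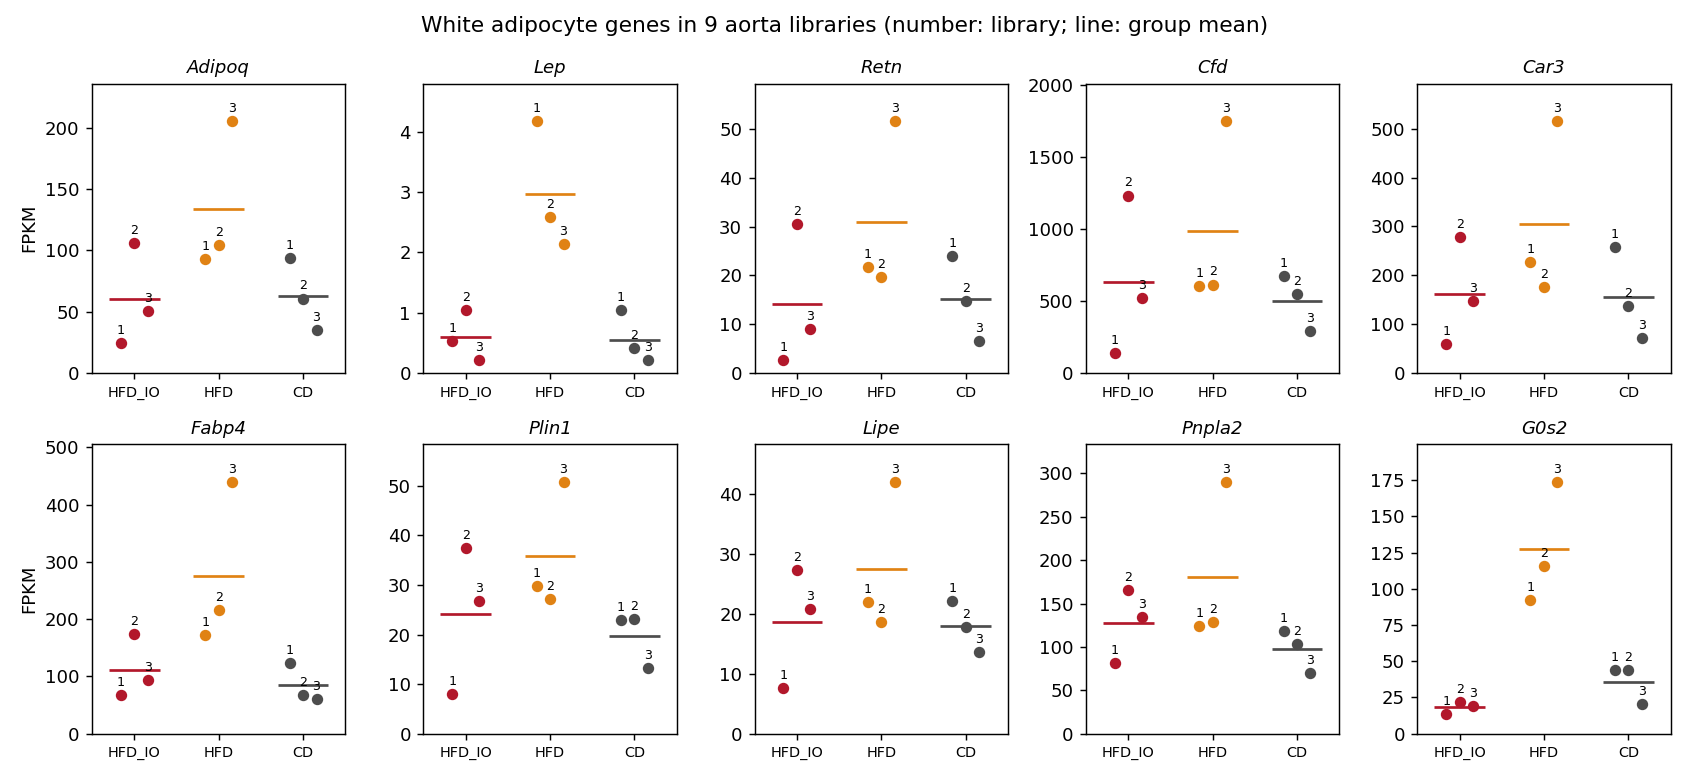
FPKM of the 10 white adipocyte genes in each library, 1 panel per gene, with HFD_IO left, HFD in the middle and CD right on a linear axis from 0. Each point is a library with its number and the bar is the group mean. HFD_3 is the highest library for 9 genes and HFD_1 for Lep, and the HFD_IO libraries lie close together for G0s2 (13.8 to 21.9 FPKM) and far apart for Retn (2.71 to 30.5 FPKM).

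Adiponectin (Adipoq, ENSMUSG00000022878, chromosome 16, 23146536 to 23158028, plus strand, GRCm38), the insulin-sensitising hormone of fat, was at 24.5, 106 and 50.2 FPKM in the HFD_IO libraries. It was at 92.8, 104 and 205 FPKM in the HFD libraries and at 93.4, 60.8 and 35.0 FPKM in the CD libraries. HFD_3 stood above all others and HFD_IO_1 below, and each pair of groups overlapped. The log2 change was 1.09 (SE 0.54, adjusted p = 0.136) in HFD against CD, -1.29 (SE 0.54, adjusted p = 0.103) in HFD_IO against HFD and -0.20 (adjusted p = 0.812) in HFD_IO against CD. None of these passed the test. Without HFD_IO_2 the change in HFD_IO against HFD was -1.81 with an adjusted p of 0.0396, so the call of Adipoq depended on this library.

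Leptin (Lep, ENSMUSG00000059201, chromosome 6, 29060220 to 29073877, plus strand), the satiety hormone that fat releases in proportion to its stores, rose in HFD against CD and fell in HFD_IO against HFD. It was at 0.532, 1.04 and 0.220 FPKM in HFD_IO, at 4.17, 2.59 and 2.15 FPKM in HFD, and at 1.04, 0.406 and 0.213 FPKM in CD. Every HFD library was above every HFD_IO and every CD library, and HFD_1, not HFD_3, was the highest. These values rest on 33, 61 and 13 reads in HFD_IO, 245, 145 and 117 reads in HFD and 64, 24 and 13 reads in CD. The log2 change was 1.36 (SE 0.27, adjusted p = 0.0054) in HFD against CD and -1.31 (SE 0.27, adjusted p = 0.00909) in HFD_IO against HFD. Against CD, HFD_IO had a change of 0.05 (adjusted p = 0.917). With 0.1 in place of 1 added before the log, the first change was 2.39 and the second -2.27. The sizes of the Lep changes therefore depend on that addition, while both directions do not.

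Resistin (Retn, ENSMUSG00000012705, chromosome 8, 3655770 to 3660110, plus strand), a cysteine-rich hormone made by adipocytes in the mouse, varied most within HFD_IO. It was at 2.71, 30.5 and 8.97 FPKM in HFD_IO, at 21.8, 19.6 and 51.6 FPKM in HFD, and at 24.0, 14.7 and 6.61 FPKM in CD. The highest HFD_IO library was 11.3 times the lowest, and the groups overlapped throughout. The log2 change was 1.02 (SE 0.74, adjusted p = 0.300) in HFD against CD and -1.47 (SE 0.74, adjusted p = 0.164) in HFD_IO against HFD. It was -0.45 (adjusted p = 0.679) in HFD_IO against CD. Without HFD_IO_2 the change in HFD_IO against HFD was -2.26 (adjusted p = 0.0405).

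Adipsin (Cfd, ENSMUSG00000061780, chromosome 10, 79890853 to 79892655, plus strand), the protease that activates the alternative complement pathway, had the highest mean FPKM of the members per deposited gene length. It was at 137, 1234 and 519.9 FPKM in HFD_IO, at 604, 615 and 1749 FPKM in HFD, and at 672, 547 and 289 FPKM in CD. HFD_3 and HFD_IO_2 were the highest libraries, and the groups overlapped throughout. No Cfd change passed the test, with 0.87 (SE 0.75, adjusted p = 0.378) in HFD against CD, -0.96 (adjusted p = 0.360) in HFD_IO against HFD and -0.09 (adjusted p = 0.940) in HFD_IO against CD.

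Carbonic anhydrase 3 (Car3, ENSMUSG00000027559, chromosome 3, 14863512 to 14872523, plus strand), a cytosolic enzyme abundant in fat and in slow skeletal muscle, followed Adipoq closely. It was at 58.7, 277 and 147 FPKM in HFD_IO, at 226, 176 and 515 FPKM in HFD, and at 257, 136 and 70.5 FPKM in CD. The summed FPKM of 15 skeletal muscle markers was 15.2, 121 and 75.4 in HFD_1, HFD_2 and HFD_3. The part of muscle in the Car3 values was not tested. The groups overlapped, and the changes were 1.01 (SE 0.64, adjusted p = 0.239) in HFD against CD, -1.03 (adjusted p = 0.257) in HFD_IO against HFD and -0.02 (adjusted p = 0.988) in HFD_IO against CD.

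Fatty acid binding protein 4 (Fabp4, ENSMUSG00000062515, chromosome 3, 10204088 to 10208576, minus strand), the carrier that takes fatty acids through the cytosol, rose in HFD against CD. It was at 66.8, 174 and 94.2 FPKM in HFD_IO, at 172, 217 and 439 FPKM in HFD, and at 123, 68.2 and 61.4 FPKM in CD. Every HFD library was above every CD library, and HFD_IO_2 at 174 FPKM overlapped the lowest HFD library at 172 FPKM. The change was 1.65 (SE 0.44, adjusted p = 0.0173) in HFD against CD, -1.29 (SE 0.44, adjusted p = 0.0547) in HFD_IO against HFD and 0.36 (adjusted p = 0.574) in HFD_IO against CD. The call in HFD against CD was lost without CD_2 (adjusted p = 0.0576), CD_3 (0.0622) or HFD_3 (0.0524). In HFD_IO against HFD the change passed without HFD_IO_2 (adjusted p = 0.0343), HFD_1 (0.0427) or CD_1 (0.0441), with voom on the recovered reads (0.0429) and at a filter of FPKM 5 (0.0429). Macrophages and capillary endothelium also express Fabp4. The summed FPKM of 14 macrophage markers was 5942 to 10310.5 in HFD_IO, 3558 to 6032 in HFD and 730.3 to 819 in CD, and that of 12 endothelial markers was 337 to 389 in HFD_IO, 172 to 309 in HFD and 492 to 718 in CD. Their part in the Fabp4 change was not tested.

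Perilipin 1 (Plin1, ENSMUSG00000030546, chromosome 7, 79720218 to 79732903, minus strand), the droplet coat that holds the lipases back at rest, was at 8.10, 37.4 and 26.8 FPKM in HFD_IO. It was at 29.7, 27.2 and 50.7 FPKM in HFD and at 23.0, 23.1 and 13.3 FPKM in CD. All HFD libraries were above all CD libraries, while HFD_IO reached below and above the CD range. The change of 0.81 (SE 0.49, adjusted p = 0.215) in HFD against CD did not pass the test. It was -0.73 (adjusted p = 0.287) in HFD_IO against HFD and 0.08 (adjusted p = 0.920) in HFD_IO against CD.

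Hormone-sensitive lipase (Lipe, ENSMUSG00000003123, chromosome 7, 25379527 to 25398710, minus strand) was at 7.65, 27.3 and 20.8 FPKM in HFD_IO, at 21.9, 18.6 and 41.9 FPKM in HFD, and at 22.2, 17.9 and 13.7 FPKM in CD. The groups overlapped, and the change was 0.53 (SE 0.44, adjusted p = 0.361) in HFD against CD, -0.62 (adjusted p = 0.316) in HFD_IO against HFD and -0.09 (adjusted p = 0.900) in HFD_IO against CD. The library strand is not given in the sources used here, and Lipe overlaps the antisense gene 4732471J01Rik, which was listed at 0.0568 to 0.203 FPKM over the 9 libraries.

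Adipose triglyceride lipase (Pnpla2, ENSMUSG00000025509, chromosome 7, 141455198 to 141460743, plus strand) was at 81.8, 166 and 135 FPKM in HFD_IO, at 124, 129 and 290.1 FPKM in HFD, and at 118, 104 and 69.7 FPKM in CD. Every HFD library was above every CD library, but the gap between HFD_1 and CD_1 was small beside the spread within HFD. The change was 0.81 (SE 0.37, adjusted p = 0.115) in HFD against CD, -0.44 (adjusted p = 0.399) in HFD_IO against HFD and 0.36 (adjusted p = 0.498) in HFD_IO against CD. Pnpla2 had the narrowest range of the members, 4.16 times from the lowest to the highest of the 9 libraries.

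The lipase inhibitor G0s2 (ENSMUSG00000009633, chromosome 1, 193272161 to 193273217, minus strand) showed the largest change of log2(FPKM + 1) of the members in both comparisons with HFD. In HFD against CD this ranking depends on the 1 added, as the ratio of mean FPKM was 5.38 for Lep and 3.54 for G0s2. G0s2 was at 13.8, 21.9 and 19.1 FPKM in HFD_IO, at 92.6, 116 and 174 FPKM in HFD, and at 43.7, 43.7 and 20.6 FPKM in CD. The HFD libraries were above all others, and the HFD_IO libraries lay within 1.59 times of each other while Retn and Cfd spread 11.3 and 9.04 times there. G0s2 rose by 1.82 (SE 0.33, adjusted p = 0.00343) in HFD against CD and fell by 2.71 (SE 0.33, adjusted p = 0.00133) in HFD_IO against HFD. Leaving out any 1 library kept both calls, with changes of 1.47 to 2.03 and of -2.92 to -2.47. Between HFD_IO and CD the change was -0.89 (SE 0.33, adjusted p = 0.0650), and HFD_IO_2 at 21.9 FPKM overlapped CD_3 at 20.6 FPKM. It was past the threshold without CD_3, with a change of -1.24 and an adjusted p of 0.0131. G0s2 overlaps the gene Lamb3 on the other strand, which was listed at 0.0905 to 0.303 FPKM over the 9 libraries.

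In HFD against CD 3 of the 10 members rose (Lep, Fabp4 and G0s2) and 0 fell, where 21.8% of all tested genes rose and 17.6% fell, so 39.4% were called. After rescaling to TPM 1018 genes rose and 4948 fell, beside 3030 and 2440 as deposited, and the count of members was 3 on both scales. All 10 members had a positive change, with a median of 1.01 against 0.06 for all tested genes. HFD and CD libraries did not overlap for 5 members (Lep, Fabp4, Plin1, Pnpla2 and G0s2), all higher in HFD, where 28.2% of tested genes were higher without overlap. The members' share called was thus close to the background.

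In HFD_IO against HFD 2 members fell (Lep and G0s2) and 0 rose, where 14.5% of all tested genes fell and 14.1% rose, 28.6% in all. After rescaling to TPM 2373 genes rose and 1160 fell, beside 1956 and 2013 as deposited, and the count of members was 2 on both scales. All 10 members had a negative change, with a median of -1.16 against -4.19e-05 for all tested genes. The groups did not overlap for the same 2 members, both lower in HFD_IO, where 24.4% of tested genes were lower without overlap. Without HFD_IO_2 the count was 5, with Adipoq, Retn and Fabp4 added, where 18.1% of all tested genes were called.

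In HFD_IO against CD limma called 0 members, where 32.5% of all tested genes were called, 17.5% higher and 15% lower, and 1 member, G0s2, had an unadjusted p under 0.05. After rescaling to TPM 1528 genes rose and 3800 fell, beside 2427 and 2089 as deposited, and G0s2 was called (adjusted p = 0.0124), as it was after quantile normalization (0.0324). Voom on the recovered reads also called 0 members. Changes were positive for 4 members and negative for 6, with a median of -0.05 against -0.01 for all tested genes. No member had groups without overlap, where 47% of tested genes did. These comparisons share libraries, so the HFD values enter both the first and the second. Over the 3 groups together, the moderated F test of limma called 3 members, Lep (adjusted p = 0.00497), Fabp4 (0.0255) and G0s2 (0.000782), where 52.1% of all tested genes were called.

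**Figure D2:**
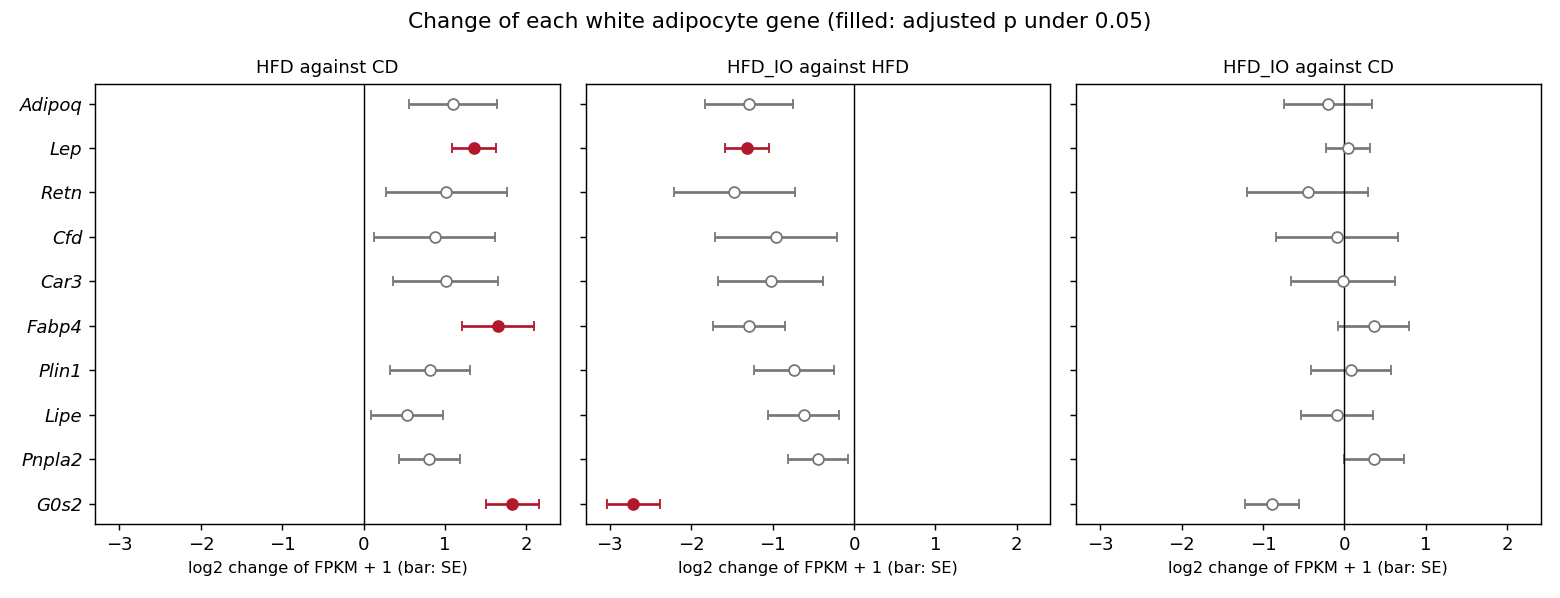
Log2 change of each of the 10 members with bars of 1 limma standard error, for HFD against CD, HFD_IO against HFD and HFD_IO against CD; filled points passed an adjusted p of 0.05 over 13883 genes. All members lie right of 0 in HFD against CD (0.53 to 1.82), left of 0 in HFD_IO against HFD (-2.71 to -0.44) and around 0 in HFD_IO against CD.

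As a sum, markers of brown adipocytes were highest in HFD, as the group means of the members were, but the 2 did not go together in every library. Ucp1, the uncoupling protein of brown fat, was at 37.8, 31.6 and 55.2 FPKM in HFD_IO, at 189, 209 and 321 FPKM in HFD, and at 81.0, 43.5 and 43.8 FPKM in CD, and HFD was above both other groups without overlap. In HFD_IO_2 Ucp1 was the lowest of the 9 libraries, while the mean centred value of the members there was 0.43. Ucp1 and the members were thus present in every library, and white and brown sources of the genes they share cannot be told apart. Ucp1 rose by 2.10 in HFD against CD and fell by 2.50 in HFD_IO against HFD. The summed FPKM of the 17 brown markers was 255 to 386 in HFD_IO, 714 to 1749 in HFD and 294 to 547 in CD. Of the 13 that were tested, 7 rose and 2 fell in HFD against CD, and the 2 were Dio2 (change -1.88) and Prdm16 (change -0.94). In HFD_IO against HFD 5 fell, and Zic1 was at 0 in 5 libraries. With the mean of the brown markers as a covariate no member was called in HFD against CD or in HFD_IO against HFD, where calls over all tested genes also fell to 12.2% and 0.483%, against 39.4% and 28.6% without it. In that fit 7 members had a negative change in HFD against CD. G0s2 then had changes of 0.97 (adjusted p = 0.0613) and -1.66 (adjusted p = 0.0808) in these comparisons, and Lep of 1.48 (adjusted p = 0.0538) and -1.46 (adjusted p = 0.184). The brown markers themselves differ between HFD and the other groups, so in this fit their level and the group cannot be told apart.

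The skeletal muscle markers summed to 9.96 to 27.9 FPKM in HFD_IO, 15.2 to 121 FPKM in HFD and 15.5 to 21.8 FPKM in CD. HFD_2 and HFD_3 were high in them and HFD_1 was not. Tnnc2 was at 0 in 7 libraries, Myh2 and Myot in 5, Myh7 in 4 and Myh4 in 3. With these markers as a covariate 1 member was called in HFD against CD and 1 in HFD_IO against HFD, where 11.6% and 7.96% of all tested genes were called. Contractile smooth muscle markers, from the vessel wall, summed to 2655 to 4480 FPKM in HFD_IO, 7352 to 8628 FPKM in HFD and 5720 to 6451 FPKM in CD. Of its 12 markers 8 fell in HFD_IO against HFD. Of 14 macrophage markers 12 rose in HFD against CD and 11 rose in HFD_IO against HFD, none fell in either, and no marker of that list was at 0. Of 12 endothelial markers 9 fell in HFD against CD and 5 rose in HFD_IO against HFD. Of all tested genes 21.8% rose and 17.6% fell in HFD against CD, and 14.1% rose and 14.5% fell in HFD_IO against HFD. The part of these cell types in the members' changes was not tested.

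**Figure D3:**
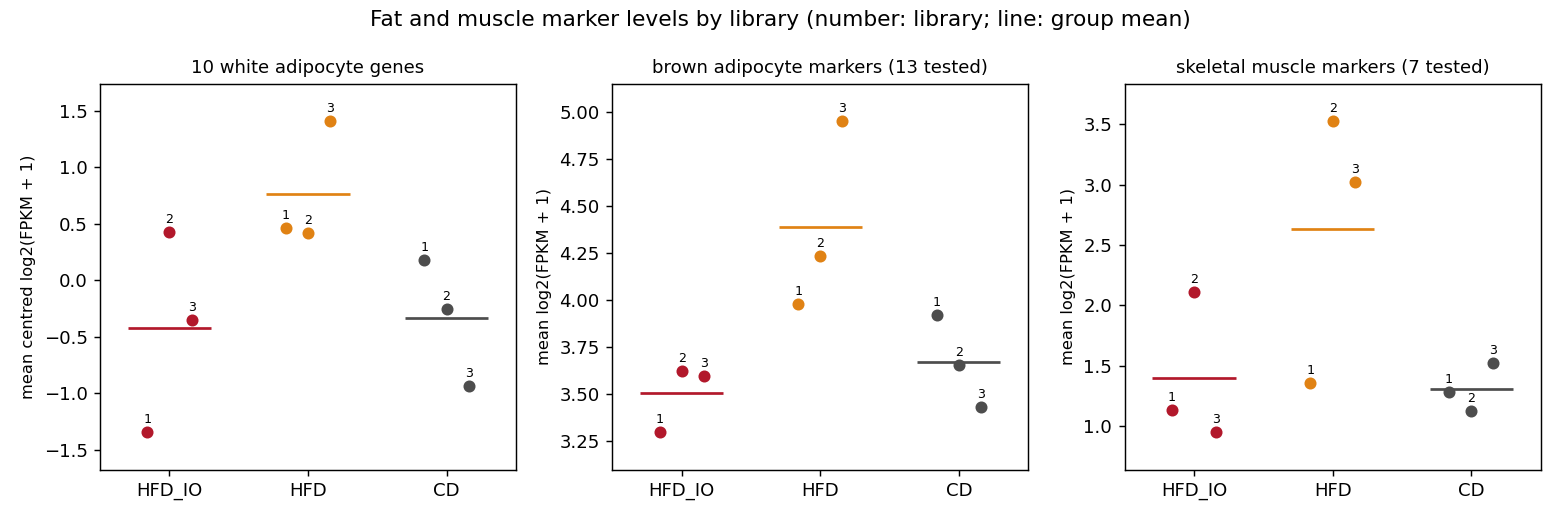
Each library by the members' mean centred log2(FPKM + 1) and by the mean log2(FPKM + 1) of 13 brown adipocyte and 7 skeletal muscle markers, 1 panel each, with HFD_IO left, HFD in the middle and CD right; numbers name the library and lines are group means. The brown markers are highest in HFD without overlap, and the skeletal muscle markers are high in HFD_2 and HFD_3 and not in HFD_1.

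To set the members against each other within a library, each was expressed as a percentage of the Adipoq FPKM of the same library, since adiponectin is made almost only by adipocytes. G0s2 was at 56.3%, 20.7% and 38.0% of Adipoq in HFD_IO, at 99.8%, 111% and 84.6% in HFD, and at 46.8%, 72.0% and 58.8% in CD. HFD was above both other groups, with means of 38.3% ± 17.8 in HFD_IO, 98.5% ± 13.3 in HFD and 59.2% ± 12.6 in CD (SD, n = 3 each). The log2 difference of this relative level was -1.42 in HFD_IO against HFD and 0.73 in HFD against CD. An exact two-sided permutation test gave p = 0.1 for both, the smallest that 3 against 3 libraries allow, and 0.386 after adjustment over the 27 tests, so neither passed. When every tested gene was set relative to Adipoq and fitted with limma, G0s2 had an adjusted p of 0.142 in HFD_IO against HFD and 0.420 in HFD against CD. In that fit every gene carries the spread of Adipoq, and the SE of the members ran only from 0.69 (Cfd) to 0.77 (Lep). These adjusted p-values therefore do not measure the spread of the G0s2 level relative to Adipoq by itself.

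The lipases and perilipin 1 had differences of the other sign in HFD_IO against HFD. Pnpla2 was at 253% ± 89.7 of Adipoq in HFD_IO and 133% ± 8.95 in HFD, Lipe at 32.8% ± 7.88 in HFD_IO and 20.6% ± 2.87 in HFD, and Plin1 at 40.6% ± 11.2 in HFD_IO and 27.6% ± 3.89 in HFD (SD, n = 3 each). All HFD_IO libraries were above all HFD libraries for these 3 genes, with log2 differences of 0.85, 0.67 and 0.56 and an exact permutation p of 0.1 each. With G0s2 these made 4 of 9 members without overlap in HFD_IO against HFD, where 29.2% of all genes relative to Adipoq were higher in HFD_IO and 0.072% lower. A gene whose own level is the same in the libraries also moves on this scale when Adipoq differs, so the 3 higher members are read against that background and are not set apart from it. G0s2 lies on the side with few genes, and that low share depends on Adipoq in the same way (change -1.29 in HFD_IO against HFD). It is no separate support beside the G0s2 change of -2.71 in the same libraries. With Plin1 as the denominator, the differences in HFD_IO against HFD were 0.29 for Pnpla2, 0.12 for Lipe and -1.98 for G0s2. The libraries of these groups then overlapped for Pnpla2 and Lipe, so their separation depended on Adipoq as the denominator. In HFD against CD Fabp4 and G0s2 were higher and Lipe lower without overlap, 3 of 9 members, where 0.295% of genes were higher and 41.4% lower. Fabp4 was at 202% ± 15.0 of Adipoq in HFD and 140% ± 32.4 in CD, and Lipe at 20.6% ± 2.87 in HFD and 30.8% ± 7.76 in CD (SD, n = 3 each). HFD_IO and CD overlapped for all 9, where 4.41% of genes did not overlap.

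For Retn and Car3 the group means relative to Adipoq were close to each other, while the HFD_IO libraries were at 11.1%, 28.9% and 17.9% for Retn. Retn averaged 19.3% ± 8.99 of Adipoq in HFD_IO, 22.5% ± 3.28 in HFD and 22.9% ± 3.57 in CD (SD, n = 3 each). Car3 averaged 265% ± 26.1 in HFD_IO, 221% ± 45.7 in HFD and 234% ± 37.8 in CD. Cfd averaged 920.2% ± 321 in HFD_IO, 698% ± 137 in HFD and 815% ± 90.8 in CD. Lep averaged 1.20% ± 0.888 in HFD_IO, 2.68% ± 1.74 in HFD and 0.796% ± 0.274 in CD (SD, n = 3 each), with overlap between all groups. In HFD_IO against HFD the log2 difference relative to Adipoq was -0.18 for Retn, 0.26 for Car3 and 0.33 for Cfd. With Plin1 as the denominator it was -0.74, -0.29 and -0.23.

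**Figure D4:**
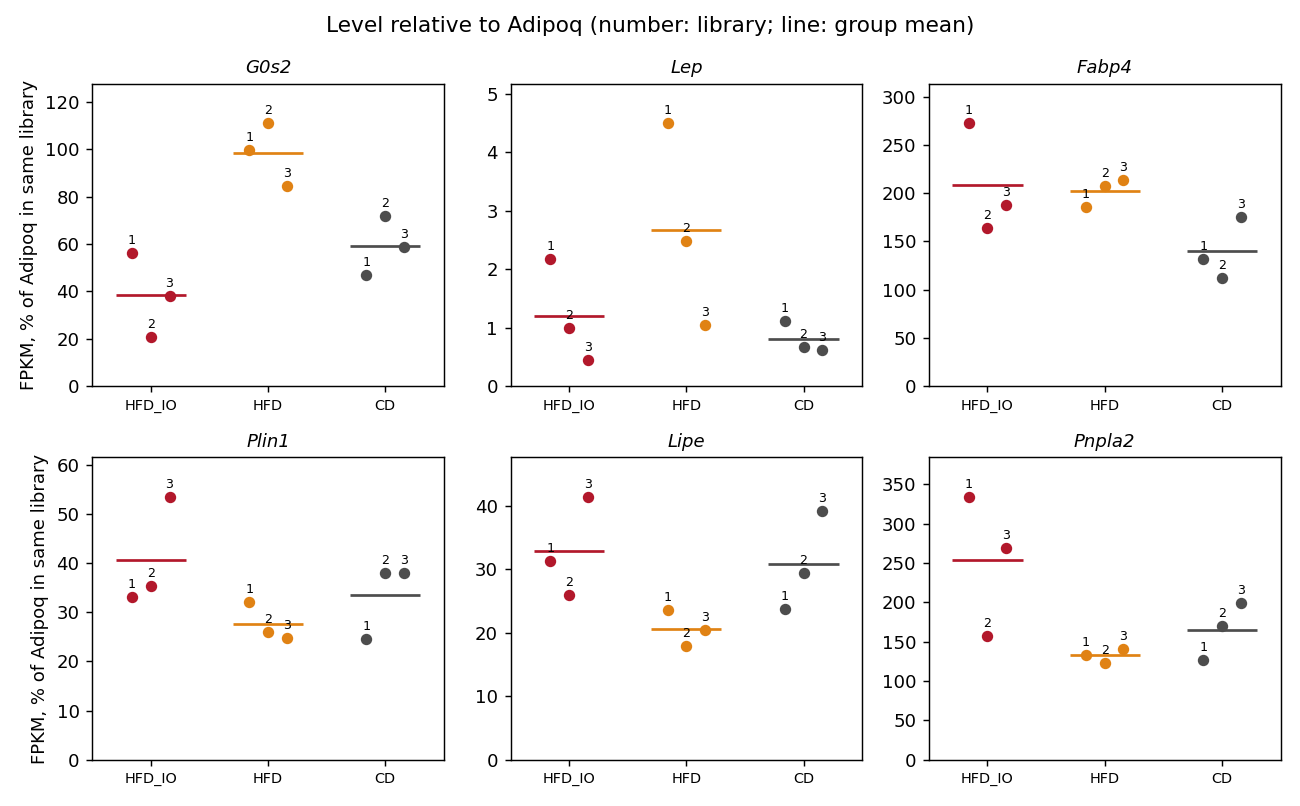
FPKM of 6 members as a percentage of Adipoq in the same library on a linear axis from 0, with HFD_IO left, HFD in the middle and CD right; points are libraries and bars are group means. G0s2 is highest in HFD (84.6% to 111%) and at 20.7% to 56.3% in HFD_IO, while Pnpla2, Lipe and Plin1 are higher in HFD_IO than in HFD.

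Ordered by mean FPKM over the 9 libraries the members ran Cfd (707), Car3 (207), Fabp4 (157), Pnpla2 (135), Adipoq (85.8), G0s2 (60.5), Plin1 (26.6), Lipe (21.3), Retn (20.1) and Lep (1.37). The library ranges of all neighbours in this order overlapped. Lep, with a highest value of 4.17 FPKM, overlapped its neighbour Retn and was below the lowest Lipe value of 7.65 FPKM. FPKM divides by the deposited gene length, which for Fabp4 is 4489 bases and equals its whole span with introns, 5.01 times its longest coding transcript of 896 bases. The level of Fabp4 per message length is therefore understated against Cfd and G0s2, whose deposited lengths of 922 and 871 bases equal their longest coding transcript. The ratio was 1.71 for Car3, 1.65 for Plin1 and 1.59 for Lipe. With the longest coding transcript as the length, Fabp4 came first with a mean of 788, before Cfd (707), Car3 (353) and Pnpla2 (155), and the order of the other members was the same. Between libraries this factor cancels.

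Likeness of profiles was measured as the root mean square difference between centred log2(FPKM + 1) values over the 9 libraries, where 0 means the same profile and the points share library and depth. Among members Car3 was nearest to Adipoq (0.23), then Retn (0.29), Plin1 (0.34) and Cfd (0.34), while Lep (0.64) and G0s2 (0.70) were farthest. The closest pair was Plin1 and Lipe (0.19). The 6 other protein-coding genes nearest to Adipoq were Arxes2 (0.23), Rgcc (0.24), Adig (0.25), Lgals12 (0.25), Ppp1r1a (0.27) and Tmem45b (0.28). Arxes2 has a near-identical neighbouring copy, so its reads are uncertain. Nearest to the mean of the 10 members were Lgals12 (0.19), Adig (0.22), Rgcc (0.23), Arxes2 (0.23), Tmem45b (0.23) and Ces1d (0.24), and of the members Adipoq (0.13) was the nearest and G0s2 (0.70) the farthest.

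Other genes of the adipocyte programme were read from lists by function, and up to 3 called genes with the largest change are named for each comparison. Of all tested genes 21.8% rose and 17.6% fell in HFD against CD, with a median change of 0.06. In HFD_IO against HFD 14.1% rose and 14.5% fell, with a median of -4.19e-05. In HFD_IO against CD 17.5% rose and 15% fell, with a median of -0.01. The list counts below are to be read beside these shares, and no set test was run. Of 14 adipogenic transcription factors 4 rose and 2 fell in HFD against CD, with a median of 0.18. Cebpb, Cebpa and Cebpd, C/EBP factors of adipocyte differentiation that myeloid cells also use, rose by 1.53, 1.20 and 1.08. Iron on top of the high fat diet went with 3 that fell and 0 that rose (HFD_IO against HFD), with a median of 0.01: Klf15 by 1.34, Cebpd by 1.18 and Cebpb by 0.65. HFD_IO against CD had 5 that rose and 3 that fell, with a median of 0.01, and Cebpa rose by 1.57, Nr1h3 by 0.97 and Cebpb by 0.88. Pparg, the master regulator of adipocytes, was not called, with 0.68 (adjusted p = 0.0698) in HFD against CD and 0.03 (adjusted p = 0.948) in HFD_IO against HFD.

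Of 13 tested droplet proteins other than Plin1, 6 rose and 0 fell in HFD against CD, with a median of 0.45. Plin2, the droplet coat found in most cells and in foam cells, rose by 1.94, Cidec, which fuses droplets, by 1.87 and Plin5 by 1.39. HFD_IO against HFD had 4 that fell and 1 that rose, with a median of -0.45. Cidec fell by 1.80, Plin5 by 1.34 and Cav1, the caveolar protein that smooth muscle and endothelium also make, by 0.99, and the 1 that rose was Plin2, by 0.50. Against chow, 3 rose and 1 fell in HFD_IO, with a median of 0.05: Plin2 rose by 2.43 and Hilpda by 0.56, and Cav1 fell by 1.14. Plin2 and Plin5 thus changed in opposite directions between HFD_IO and HFD.

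Of 16 lipolysis genes 7 rose and 1 fell in HFD against CD, with a median of 0.58. Cidec rose by 1.87, Gnai1, an inhibitory G protein subunit, by 0.79, and Npr1, the natriuretic peptide receptor, fell by 0.77. Abhd5, the coactivator of the Pnpla2 lipase, rose by 0.64 in HFD against CD (adjusted p = 0.0129), and its change in HFD_IO against HFD was -0.22 (adjusted p = 0.333). Abhd5 is named as the coactivator of a member's lipase and not by the size of its change. Of the list, 3 fell and 0 rose in HFD_IO against HFD, with a median of -0.22: Cidec, Gnai1 by 1.01 and Prkaca, the catalytic subunit of protein kinase A, by 0.47. Between HFD_IO and CD 1 gene of the list rose and 1 fell, Npr1 by 1.06, with a median of 0.26.

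Of 21 genes of lipid uptake and triglyceride synthesis 5 rose and 1 fell in HFD against CD, with a median of 0.31. Cd36, the fatty acid translocase that macrophages also carry, rose by 1.73, Gpd1, which makes glycerol phosphate, by 1.47 and the lipoprotein lipase gene Lpl by 1.09. With HFD_IO set against HFD, 3 rose and 5 fell, with a median of -0.38. Lpl rose by 1.78 and Cd36 by 1.66, and Thrsp, a lipogenic regulator of fat and liver, fell by 1.96. With HFD_IO set against CD, 3 rose and 1 fell, with a median of -0.18: Cd36 by 3.40 and Lpl by 2.87 were the largest rises, Slc27a1 rose by 1.05 and the glucose-sensing factor Mlxipl fell by 1.05. Cd36 and Lpl rose in HFD_IO against HFD, where all 10 members had a negative change and 11 of 14 macrophage markers rose. The part of macrophages in these rises was not tested.

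Of 12 genes of insulin-stimulated glucose uptake 2 rose and 3 fell in HFD against CD, with a median of -0.08, and 2 rose and 1 fell in HFD_IO against HFD, with a median of 0.06. Slc2a4, the insulin-responsive glucose transporter, rose by 0.82 and fell by 0.94 in these, while Tbc1d4 fell by 0.60 and rose by 0.73 and Cbl fell by 0.60 and rose by 0.92. HFD_IO against CD had 1 called gene, Rab10, which rose by 0.49.

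The list of other adipokines also holds genes of membrane proteins such as Nnat. Of its 13 tested genes 6 rose and 0 fell in HFD against CD, with a median of 0.71. Lcn2, a siderophore-binding lipocalin that neutrophils and macrophages also make, rose by 3.31, the Wnt antagonist Sfrp5 by 2.27 and Nnat by 2.20. HFD_IO against HFD had 6 that fell and 0 that rose, with a median of -0.53: Nnat by 1.85, the retinol carrier Rbp4 by 1.52 and the vasodilator precursor Adm by 1.10. HFD_IO against CD had 3 that rose and 2 that fell, with a median of -0.16, and Lcn2 rose by 3.92 and Sfrp5 by 2.64 while Rbp4 fell by 1.01. Itln1 and Fgf21 were at 0 in 7 libraries and Serpina12 in 5.

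Of 11 tested adipokine receptors 5 rose and 3 fell in HFD against CD, with a median of 0.30, and 4 rose and 1 fell in HFD_IO against HFD, with a median of 0.23. C3ar1, the receptor of a complement fragment on macrophages, rose by 1.86 and by 2.11 in these comparisons, and Stab1, a scavenger receptor, fell by 1.25 and rose by 1.02. Cap1, described as a resistin receptor in human monocytes, rose by 0.90 in HFD against CD, and the leptin receptor gene Lepr fell by 0.59 in HFD_IO against HFD. For the receptors in HFD_IO against CD, 4 rose and 0 fell, with a median of 0.15: C3ar1 by 3.96, Cap1 by 0.85 and Tlr4 by 0.78. Of the 7 tested partners of Cfd in the alternative complement pathway 4 rose and 0 fell in HFD against CD, with a median of 0.83, and beside C3ar1 these included Cfp by 1.38 and Cfi by 1.13. In HFD_IO against HFD 2 rose, C3ar1 and C3 by 0.54, and 0 fell, with a median of 0.16. Against CD, 4 of the partners rose in HFD_IO and 0 fell, with a median of 1.18, among them Cfp by 1.53 and C3 by 1.37.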

How the data were processed

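RNA-seq libraries of 9 aortas were compared, 3 per group. FPKM values with each gene's length, in bases, come as deposited by the authors, a column for each library. Libraries were made with an NEBNext kit, per the labels' protocols. HISAT2 and the build name hg38 stand in the submitters' processing notes, but the gene identifiers are mouse: 54409 of 54532 are in GENCODE M21, 98.3% of those and all 10 members with that annotation's GRCm38 coordinates. Counter, annotation release and strand: not given in the sources used here. Columns were assigned to groups only.

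Multiplied by gene length, 100% of the FPKM values above 0 came out as whole multiples of 1 step, to within 0.05 of a read, so whole reads could be read back. They sum to 16660963 to 18308450 per library. The deposited scaling is proportional to median-of-ratios size factors of those reads.

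Log2(FPKM + 1) of 13883 genes with FPKM of at least 1 in at least 3 libraries entered 1 linear model with 3 group means (limma 3.58.1, R 4.3.3, mean-variance trend, Benjamini-Hochberg within each comparison, threshold 0.05). Limma p-values weigh a group difference against a spread between libraries that is pooled over the 3 groups and moderated across the tested genes. Levels relative to Adipoq were tested by exact permutation (scipy 1.17.1), and by limma over all genes. That fit, and levels per longest coding transcript of GENCODE M21, were chosen after seeing the data. Alternatives were the pseudocount, filter, scaling, fit, library weights, voom on the recovered reads, marker covariates and left-out libraries. The calculation was tested on simulated data.

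The members, the 16 gene lists and the alternatives were chosen with earlier results of these data known. Named are all members, up to 3 called genes of largest change in each of 8 function lists, and the 6 protein-coding genes nearest in profile to Adipoq and to the members' mean. Pparg and Abhd5, Ucp1, Dio2, Prdm16, the listed zeros and overlapping genes were named outside that rule. A gene that meets the rule is not reported here. Trarg1 was read under its synonym Tusc5. Counting precision follows from depth: the lowest member value, Lep in CD_3, rests on 13 reads.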

Additional observations from a re-analysis of the deposited data

How the results depend on the processing

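The libraries are few, and the members differ up to several-fold between aortas of a group, so a change that missed the threshold is not shown to be absent. Lep rests on 13 to 245 reads. No paired analysis was possible because the labels number the aortas 1 to 9 with no number shared between groups. A bulk value cannot show which cells of the aorta it came from.

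In HFD against CD 3 members were called, and 5 with library weights, 1 with the skeletal muscle markers as covariate and 0 with the brown markers as covariate. Of all tested genes 39.4% were called, and 56.1%, 11.6% and 12.2% at these settings. Leaving out 1 library gave 2 to 3, where 26.7% to 44.4% of all tested genes were called. In HFD_IO against HFD 2 were called, and 1 without a filter on low values, 1 with the skeletal muscle covariate and 0 with the brown covariate. Of all tested genes 28.6% were called, and 3.09%, 7.96% and 0.483% at these settings. Leaving out 1 library gave 2 to 5, and 5 was without HFD_IO_2, where 18.1% of all tested genes were called. Between HFD_IO and CD 0 were called, and 1 after rescaling to TPM, 1 after quantile normalization and 2 with the brown covariate (Pnpla2 higher, adjusted p = 0.0229, and G0s2 lower, adjusted p = 0.0300). Of all tested genes 32.5% were called, and 38.4%, 35.1% and 32.9% at these settings. Leaving out 1 library gave 0 to 1, where 21.9% to 36.3% of all tested genes were called. Over the 3 groups together leaving out 1 library gave 2 to 5. Members without overlap relative to Adipoq numbered 3 to 5 in HFD against CD (5 without CD_1 or HFD_3), 4 to 6 in HFD_IO against HFD and 0 to 3 in HFD_IO against CD when 1 library was left out, and 2 in HFD_IO against HFD with Plin1 as the denominator. Shares over all genes were not computed at these settings. With all libraries and Adipoq they were 0.295% higher and 41.4% lower in HFD against CD, and 29.2% and 0.072% in HFD_IO against HFD. In HFD_IO against CD 4.41% did not overlap.

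G0s2 and Lep kept their calls in HFD against CD and in HFD_IO against HFD in every leave-out of 1 library, with adjusted p up to 0.0125 and 0.0227 for the first and 0.0062 and 0.0300 for the second. The G0s2 call in HFD against CD was lost with the skeletal muscle covariate (adjusted p = 0.0572, change 1.57). The Lep call in HFD_IO against HFD was lost without a filter (adjusted p = 0.0717) and with that covariate (0.0507), while its change was -1.31 and -1.44 there, against -1.31 in the reported fit. Lep was not tested at a filter of FPKM 5. The Fabp4 call in HFD against CD was also lost without a filter (adjusted p = 0.129), where its change was 1.65 as in the reported fit, and with the skeletal muscle covariate (0.215, change 1.07). TPM moved the median of all tested genes to -0.30 in HFD against CD, 0.14 in HFD_IO against HFD and -0.23 in HFD_IO against CD.

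Directions turned as follows. With the brown covariate the change in HFD against CD was -0.24 for Adipoq, -0.65 for Retn, -0.89 for Cfd, -0.60 for Car3, -0.23 for Plin1, -0.54 for Lipe and -0.28 for Pnpla2. For HFD_IO against HFD it was 0.35 for Adipoq, 0.59 for Retn, 1.21 for Cfd, 0.96 for Car3, 0.19 for Fabp4, 0.56 for Plin1, 0.69 for Lipe and 0.89 for Pnpla2. For HFD_IO against CD it was 0.11 for Adipoq, 0.31 for Cfd, 0.35 for Car3 and 0.16 for Lipe. None of these reversed values passed the threshold. Library weights in HFD_IO against CD gave 0.28 for Adipoq, 0.16 for Retn, 0.36 for Cfd, 0.58 for Car3 and 0.15 for Lipe. Without both CD_1 and HFD_3 the values there were 0.14 for Adipoq, 0.16 for Cfd, 0.44 for Car3 and 0.072 for Lipe. TPM gave -0.045 for Lep and -0.16 for Plin1, and quantile normalization -0.039 for Lep and -0.00901 for Plin1. Leaving out 1 library in this comparison gave -0.72 to 0.32 for Adipoq, -0.15 to 0.26 for Lep, -1.24 to 0.30 for Retn, -0.83 to 0.76 for Cfd, -0.54 to 0.57 for Car3, -0.016 to 0.67 for Fabp4, -0.34 to 0.69 for Plin1 and -0.44 to 0.42 for Lipe. The causes were not tested.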
